A study of Mus musculus with 2 samples.

Results

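Annexins and S100 proteins are 2 families of calcium-binding proteins whose transcripts were read here on a pair of arrays of mouse liver cells. Within the families, which were picked with earlier results of these data known, the genes were taken by name: every spot that was not a control and whose gene name was Anxa or S100a followed by a number, S100b, S100g, S100z or S100pbp. This gave 29 genes of 30153 on the array, read by 40 probes: 12 annexins with 17 probes, 16 S100 genes with 20 probes, and S100pbp, which encodes a binding protein of S100 proteins and not an S100 protein, with 3 probes. S100a7a carries a name that the rule does not take.

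The study compared mature hepatocytes (MH) with biphenotypic hepatocytes, cells of injured liver that show both hepatocyte and bile duct features. Both came from livers of Sox9-EGFP mice, in which a transgene marks cells that express Sox9 with green fluorescent protein, and both livers were digested by collagenase perfusion. MHs were taken from healthy liver by slow centrifugation and a Percoll gradient. Sox9+EpCAM- cells were sorted as GFP+EpCAM- cells from livers injured by feeding the mice DDC, a collidine derivative that raises porphyrins and damages bile ducts. Each group was 1 sample on 1 one-colour array, and both were labelled male. The age of the mice and the number of mice behind each array were not given in the sources used here. Cells of the same kind that were isolated for quantitative PCR came from mice on DDC for 2 weeks, and no time of feeding is stated apart from that for the cells on the array. Because the diet, the sort and the gradient each went with 1 group, their parts cannot be told apart, and with 1 array per group no difference below has a replicate check or a test.

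Annexins bind membranes that carry acidic phospholipids when calcium rises, through a core of repeated domains, and serve in membrane traffic, repair and the attachment of the cytoskeleton. S100 proteins are small EF-hand proteins that form dimers. Once calcium is bound, most of them expose a surface that docks on a target protein, and several of the targets are annexins: S100a10 pairs with Anxa2 and S100a11 with Anxa1. Anxa2, S100a6, S100a10 and S100a11 are well known from epithelial, mesenchymal and tumour cells. A run of S100a genes lies side by side on mouse chromosome 3.

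A gene's level here is the background-corrected spot intensity. A difference is the log2 of that intensity, set to each array's 75th percentile (741 for MHs, 1110 for Sox9+EpCAM- cells), in Sox9+EpCAM- cells minus MHs. Where the scanner software did not call a probe well above background on 1 array, the difference is a bound ("at least"), measured against the larger of that probe's own signal and the lowest signal called well above background there (27.8 for MHs, 18.4 for Sox9+EpCAM- cells). The brightest probe stands for a gene with several. Intensities of different probes are not on a common scale, so no annexin's or S100 gene's level is set against another's. Differences of at least 4-fold were counted by size.

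Before the results, 2 marks of the samples went against their labels or sort. Xist, the transcript of the inactive X chromosome of females, read 3500 and 1940 by its 2 probes in MHs, against 4.39 and 16.1 in Sox9+EpCAM- cells, where neither was well above background. The 4 genes of the Y chromosome that were checked have 5 probes, of which MHs showed 0 and Sox9+EpCAM- cells 4 above background, so a difference in sex cannot be told apart from that in injury. Epcam, which the sort selects against, read 139 in MHs and 2770 in Sox9+EpCAM- cells (log2 difference 3.73). All 9 hepatocyte markers were well above background on both arrays and all 9 were lower in Sox9+EpCAM- cells after scaling, from Hnf4a at 4990 and 6360 (-0.23) and Alb at 207000 and 170000 (-0.87) to the 3 past 4-fold: Tat (68800 and 18700, -2.46), Cyp2e1 (56100 and 1900, -5.47) and Cyp3a11 (85800 and 337, -8.58). Sox9, which defines the sorted cells, read 8.87, not well above background, and 60.7 (at least 1.45-fold higher). In bulk RNA, fewer cells of a type and less of a transcript per cell cannot be told apart. The arrays held 43020 spots that were not controls, of which 27523 and 32158 were well above background.

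Of the 29 genes, 25 were well above background on at least 1 array: all 12 annexins, 12 of 16 S100 genes and S100pbp. S100a5, S100a8, S100a9 and S100z were on neither array, which here means that a probe was present but not well above background. Among the 25, Sox9+EpCAM- cells had 6 genes (24%) higher by 4-fold or more, against 5.59% of the 23417 genes that passed the same filter, and 0 lower to that extent, against 5.57%. The 6 were S100a11, Anxa1, Anxa2, Anxa13, S100a10 and S100a6. The 3 annexins among them passed the filter through the Sox9+EpCAM- array alone, so they had to lie above 0. Of the 21 genes measured on both arrays, 3 (14.3%), all of them S100 genes, were at least 4-fold higher and 0 lower, against 3.94% and 4.75% of 19235 such genes. At 2-fold, 11 genes (44%) were higher and 4 (16%) lower, against 14.2% and 16.7% of all genes, and 10 lay within 2-fold. The 11 include the same 3 annexins and S100b, which likewise passed the filter through the Sox9+EpCAM- array alone. At 10-fold, 3 genes of the 25 were higher and 0 lower, against 1.55% and 1.47% of all genes. They were S100a11, measured on both arrays, and Anxa1 and Anxa2, each by a bound. The median difference was 0.64 over the annexins and 0.29 over the S100 genes, bounds included, beside -0.12 over the 21877 genes of the array with a difference or a bound. The rest of the 23417 were well above background on 1 array without giving a fold of over 1. Over genes measured on both arrays these medians were 0.05, 0.18 and -0.19, so the annexin median rested on the 3 bounds.

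**Figure D1:**
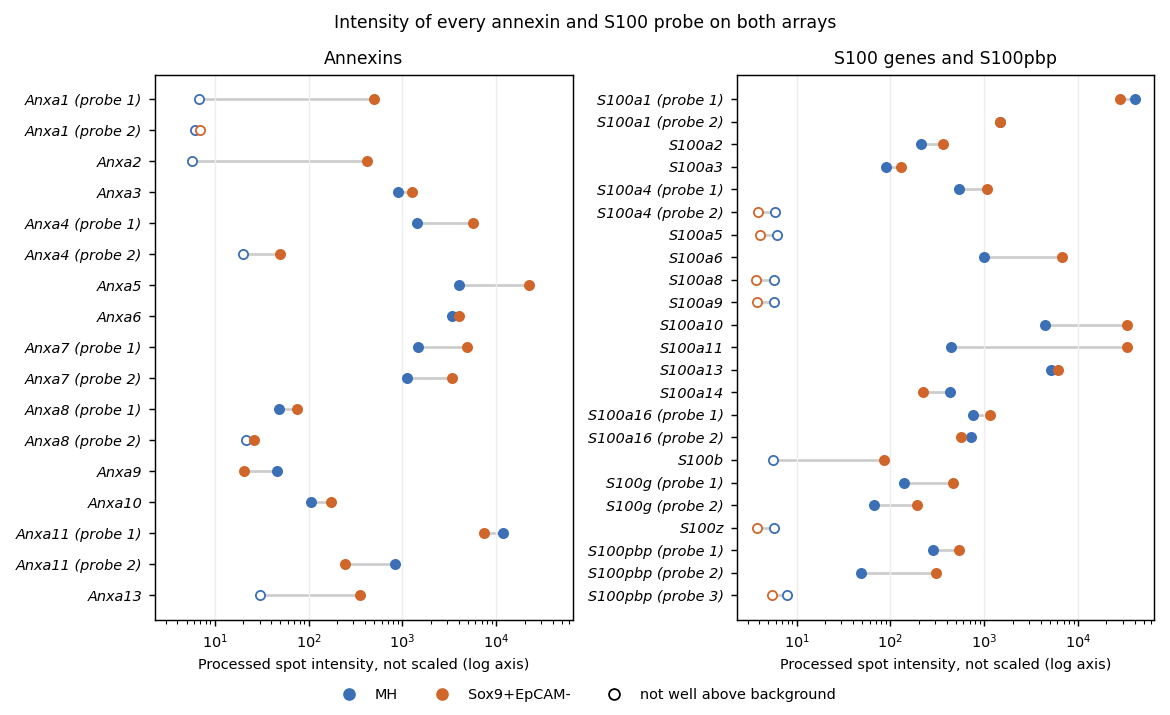
Processed spot intensity (log axis, not scaled between arrays) of each annexin and S100 probe on the MH array (blue) and the Sox9+EpCAM- array (orange), with open circles for probes not well above background and probe 1 the brightest of a gene. S100a11 read 437 and 33000, and Anxa1 and Anxa2 were filled on the Sox9+EpCAM- array only.

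S100a11 had the largest difference of the 21 genes measured on both arrays. The protein binds the tail of Anxa1 and is known from epithelial and tumour cells. Its 1 probe (chr3:93330022-93330081, mm9) read 437 in MHs and 33000 in Sox9+EpCAM- cells, well above background on both arrays. The difference was 5.66, or 50.4-fold.

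Its partner Anxa1, which calms inflammation through formyl peptide receptors, was measured by 2 probes that did not read alike. The brighter (chr19:20449722-20449781, mm9) read 6.77 in MHs, not well above background, and 499 in Sox9+EpCAM- cells, at least 12.0-fold higher. The other probe, 1784 bases away, read 6.10 and 6.95 and was not well above background on either array. Thus the higher level of Anxa1 was read by 1 of its 2 probes.

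Anxa2 and S100a10 form a tetramer at the inner face of the plasma membrane, in which S100a10 is an S100 protein that no longer binds calcium and is kept from breakdown by the annexin. For S100a10 (chr3:93368437-93368496, mm9) the intensity was 4480 in MHs and 32800 in Sox9+EpCAM- cells (2.29, 4.89-fold). For Anxa2 (chr9:69339532-69339591, mm9) it was 5.78, not well above background, and 420 (at least 3.33, at least 10.1-fold). Both members of the pair were therefore higher on the Sox9+EpCAM- array, but S100a10 was well above background in MHs and Anxa2 was not.

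S100a6, or calcyclin, is tied to dividing cells and to ubiquitin ligase through its binding protein. Its probe (chr3:90418160-90418219, mm9) read 982 and 6690 (2.19, 4.55-fold). Anxa13, an annexin of intestinal and kidney epithelium that works in transport to the apical membrane, read 30.2 in MHs, not well above background, and 349 in Sox9+EpCAM- cells (at least 2.95, at least 7.71-fold; chr15:58173475-58173534, mm9). With normexp background correction the differences of Anxa2 and Anxa13 were 1.98 and 1.42, under 4-fold, and that of Anxa1 was 2.04.

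**Figure D2:**
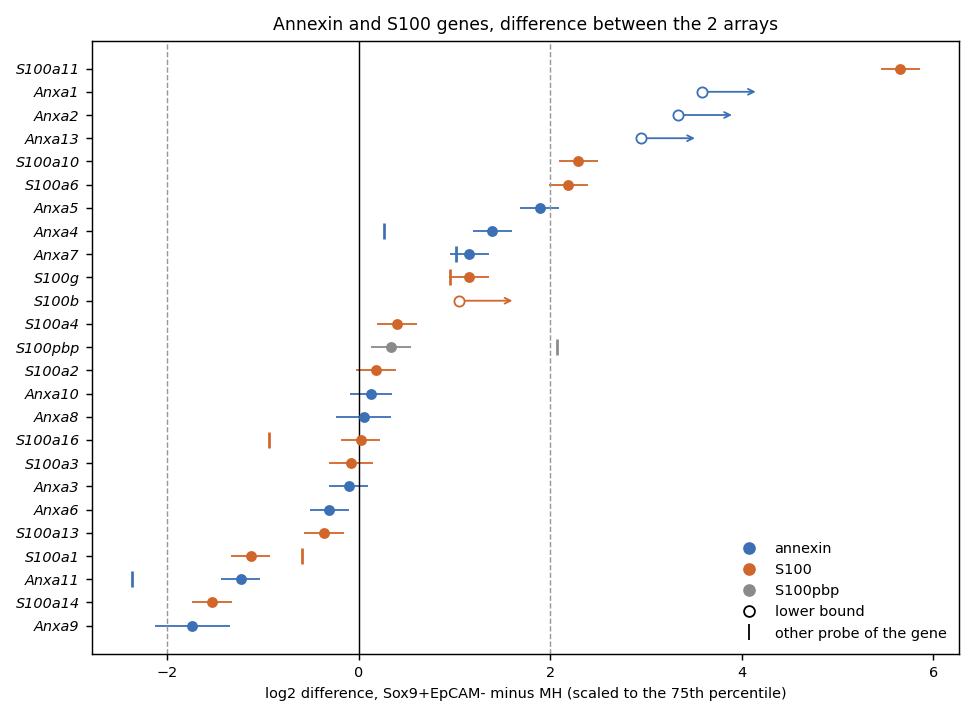
Log2 difference of each gene, Sox9+EpCAM- minus MH, by its brightest probe. Horizontal bars are the software's error of 1 spot per array, not a replicate error, arrows mark lower bounds, upright ticks are other probes of the gene with a difference or a bound, and dashed lines mark 4-fold. S100a11 stood at 5.66 and Anxa9 at -1.74.

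A further 5 genes were between 2-fold and 4-fold higher. Anxa5, the annexin used to stain exposed phosphatidylserine on dying cells, read 4000 and 22200 (1.89, 3.71-fold). Over the settings run it lay between 1.71 and 2.25, past 4-fold with quantile normalization or scaling to Gapdh. Anxa4, an annexin of secretory epithelia, read 1430 and 5620 (1.39). Anxa7, also called synexin for its part in membrane fusion, read 1480 and 4930 by 1 probe and 1120 and 3380 by the other (1.15 and 1.01), so its probes were 0.14 apart. S100g, the vitamin D-dependent calcium carrier of intestine and kidney, read 140 and 465, and 66.5 and 193 by its other probe (1.15 and 0.95). S100b, best known from glia, read 5.63, not well above background, and 85.7 (at least 1.04, at least 2.06-fold). Without a bound the S100b difference was 3.35, and with normexp background correction 0.29, so its size was set by how dim probes were handled. Other genes of the 5 also fell under 2-fold under some settings. Anxa7 stood at 0.97 with the deposited values, S100g at 0.97 with those and 0.83 with normexp, and Anxa4 at 0.83 with the median of its probes.

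The other 10 genes lay within 2-fold. Anxa6, which holds a doubled annexin core, read 3350 and 4050 (-0.31 after scaling). Anxa3 read 905 and 1260 (-0.11), Anxa10 105 and 172 (0.13), and Anxa8 48.1 and 74.6 (0.05). Among the S100 genes, S100a13, which helps release growth factors without a signal peptide, read 5190 and 6040 (-0.36). S100a4, a partner of non-muscle myosin that is often used to mark fibroblasts, read 542 and 1070 (0.40), but its other probe was not well above background on either array (5.87 and 3.89). S100a2 and S100a3 differed by 0.18 and -0.08. S100a16 read 750 and 1140 by its brighter probe (0.02) and 720 and 562 by the other (-0.94). The direction of Anxa3, Anxa8, Anxa10, S100a3 and S100a16 changed with the scaling, background correction or probe, and none of the 5 reached 2-fold under any setting run.

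In the other direction, Sox9+EpCAM- cells had 4 genes lower by 2-fold or more. S100a1, which tunes calcium release in muscle, read 40800 and 27900 (-1.13), and 1470 and 1460 by its other probe (-0.59). S100a14, an epithelial S100 gene, read 433 and 224 (-1.53, 2.90-fold lower). Anxa11, which binds the penta-EF-hand protein Pdcd6, read 11700 and 7460 (-1.23) by its brighter probe and 843 and 244 (-2.37, 5.18-fold lower) by a probe 12063 bases away. With quantile normalization and with scaling to Gapdh, S100a1 (-0.67 and -0.86) and Anxa11 (-0.87 and -0.97) fell under 2-fold. S100a1 also did so with the median of its probes (-0.86). Anxa9, an annexin with weakened calcium sites, read 45.9 and 20.6 (-1.74, 3.34-fold lower), close to the lowest signal called above background, and passed 4-fold with quantile normalization but stood at -1.05 with normexp background correction.

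S100a8 and S100a9 form calprotectin, the main cytosolic protein of neutrophils. They read 5.72 and 5.74 in MHs and 3.66 and 3.81 in Sox9+EpCAM- cells, not well above background on either array. S100a5 read 6.13 and 4.09 and S100z 5.73 and 3.81, and the 4 genes have no difference to report. Of 10 neutrophil markers, 3 (Ltf, Ngp and Retnlg) were likewise on neither array, while the other 7 were well above background on both arrays. These were Ly6g (8330 and 2220), Csf3r (69400 and 86600), Mmp8 (43.5 and 515), Mpo (74.1 and 121), Elane (80.1 and 73.9), Camp (99.9 and 131) and Cxcr2 (99.4 and 143).

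Several genes were read by more than 1 probe, and their probes did not always give the same difference. Of 10 genes with more than 1 probe, 7 had a difference or a bound from at least 2, and these lay between 0.14 and 1.74 apart, under 1 in 4 of the 7. The widest gap was in S100pbp, with 0.34 by the brightest probe (282 and 533), 2.07 by the second (48.4 and 305, 4.21-fold higher) and no reading above background by the third (7.87 and 5.48). Anxa4 came next with Anxa11: its dimmer probe, 13962 bases away, read 19.8, not well above background, and 49.9 (at least 0.26 against 1.39). Anxa8 was also read by a probe spotted 10 times on each array, from 17.5 to 29.2 (median 20.65) in MHs with 0 of 10 spots well above background, and from 16.8 to 33.8 (median 26.9) in Sox9+EpCAM- cells with 9 of 10, and the ranges overlapped. None of the 40 probes had 20 bases in a row in common with another gene's probe, against 7.16% of all probes, although this does not count genes without a probe. The software's own error was 10% to 21.7% of the signal for probes well above background.

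**Figure D3:**
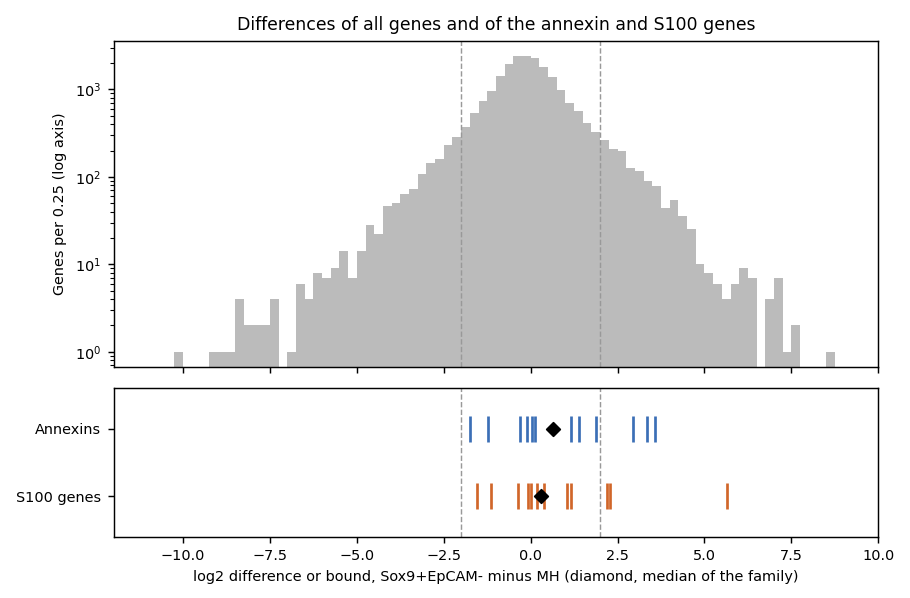
Top, log2 differences of the 21877 genes with a difference or a bound (number of genes per 0.25, log axis). Below, each annexin and S100 gene as a tick with the family median as a diamond (0.64 and 0.29) and dashed lines at 4-fold. The ticks of Anxa1, Anxa2, Anxa13 and S100b are lower bounds, so their true place may be further right, and S100a11 stood at 5.66.

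Both directions were found among the S100 genes of chromosome 3. From S100a1 to S100a9 the probes of the 11 S100 genes that the name rule takes spanned 181 kb. The first genes of the run, S100a1, S100a13 and S100a14, stood at -1.13, -0.36 and -1.53. S100a16, S100a2, S100a3 and S100a4 followed, between -0.08 and 0.40. S100a6, at 103 kb, stood at 2.19, 2.52 kb from the probe of S100a5, which was on neither array. S100a8 and S100a9 at the far end were on neither array. A further 2833 kb along lay S100a11 and S100a10, 38.4 kb apart, and both were at least 4-fold higher.

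Genes beside them that are no members were read in the same way, within 150 kb. Around S100a11 and S100a10 there were 7, of which 4 were well above background on at least 1 array and 0 reached 4-fold in either direction (-0.61 and 1.09 for the 2 measured on both). Around S100a1 to S100a9 there were 9, of which 7 were well above background. Among the 9 was S100a7a, which the name rule does not take and which was on neither array (8.32 and 5.45). The fatty acid transporter gene Slc27a3 was higher (at least 2.31), the natriuretic peptide receptor gene Npr1 was lower (9.06 and 207 for the first, 70.1 and 7.39 for the second), and Gm5849 read 623 and 37.0 (-4.66). The S100 fused-type genes join an S100 domain to long repeats in skin proteins, and 3 of the 7 read (Rptn, Tchh and Tchhl1) lay within 150 kb of S100a11 and S100a10. Of the 7, Crnn and Tchh were on at least 1 array, and the 1 with a difference, Crnn, read 43.6 and 53.0 (-0.30).

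**Figure D4:**
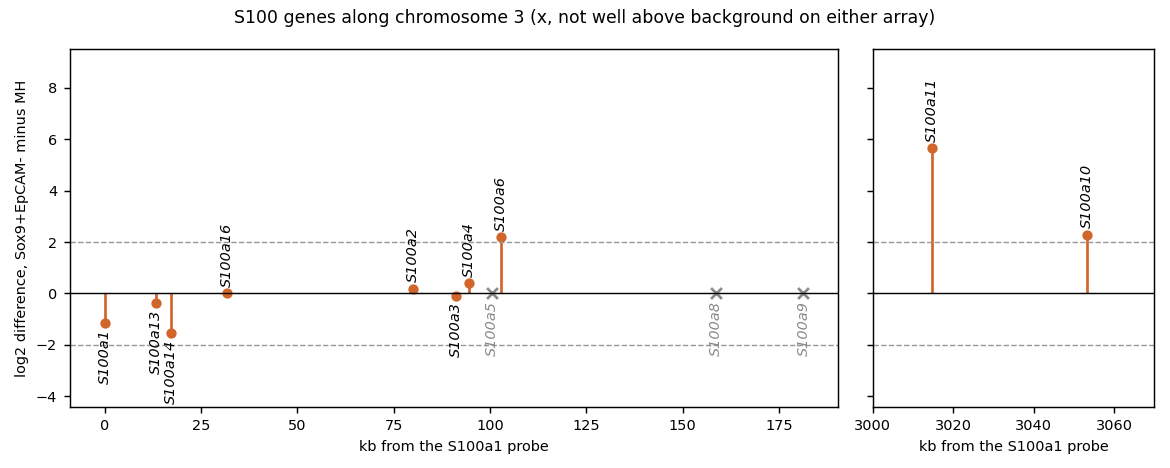
Log2 difference of the S100 genes of chromosome 3 that the name rule takes, against the distance of each probe from that of S100a1 (kb, mm9), with a break between the panels. Crosses mark genes not well above background on either array, and dashed lines mark 4-fold. S100a6, S100a11 and S100a10 stood above the upper line at 2.19, 5.66 and 2.29, and no gene stood below the lower line.

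The promoters of the higher genes are shown because these genes were higher together. They are 4 of the 6, since S100a10 and Anxa13 had no entry in the table used. Each run is the 250 bases before the transcript start, 5′ to 3′ on the gene's strand, from RefSeq on GRCm38.p6, a later build than the mm9 positions above. Capitals mark matches on either strand to 5 short motifs. The AP-1 motif was searched as TGANTCA. The TEAD motif was searched as GGAATG. The letters of the GC box were GGGCGG, a site known for Sp1. For the CCAAT box, the letters were those of its name. The TATA box was searched as TATAAA. The regions are chr3:90612644-90612893 on the plus strand for S100a6, chr3:93520246-93520495 on the plus strand for S100a11, chr9:69453433-69453682 on the plus strand for Anxa2 and chr19:20390672-20390921 on the minus strand for Anxa1.
S100a6: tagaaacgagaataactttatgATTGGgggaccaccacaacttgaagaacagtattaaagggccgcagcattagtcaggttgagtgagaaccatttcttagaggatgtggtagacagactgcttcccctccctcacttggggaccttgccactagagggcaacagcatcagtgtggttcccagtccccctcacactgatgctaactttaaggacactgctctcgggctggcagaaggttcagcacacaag
S100a11: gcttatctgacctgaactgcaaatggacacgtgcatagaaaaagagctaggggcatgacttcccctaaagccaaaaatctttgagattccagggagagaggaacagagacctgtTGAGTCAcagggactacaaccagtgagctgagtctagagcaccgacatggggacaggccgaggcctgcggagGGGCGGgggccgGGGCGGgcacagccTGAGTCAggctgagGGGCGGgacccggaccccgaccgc
Anxa2: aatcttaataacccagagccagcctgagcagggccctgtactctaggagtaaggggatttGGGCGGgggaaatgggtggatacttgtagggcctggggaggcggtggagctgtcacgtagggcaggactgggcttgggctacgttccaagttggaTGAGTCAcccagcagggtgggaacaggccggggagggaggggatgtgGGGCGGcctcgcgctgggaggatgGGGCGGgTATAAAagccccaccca
Anxa1: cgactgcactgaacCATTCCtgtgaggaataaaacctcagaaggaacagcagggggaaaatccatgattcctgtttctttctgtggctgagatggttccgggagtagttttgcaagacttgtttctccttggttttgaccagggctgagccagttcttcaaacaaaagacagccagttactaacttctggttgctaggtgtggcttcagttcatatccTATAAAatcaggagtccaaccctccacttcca

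S100a11 held the AP-1 letters at 136 and 38 bases before the start and the GC box at 64, 52 and 24. Anxa2 held AP-1 at 95, the GC box at 190, 48 and 24, and a TATA box at 17. Anxa1 held the TEAD letters at 236 and a TATA box at 32, and S100a6 a CCAAT box at 228. No printed match overlapped another. Among the 23 of 29 genes with a promoter entry, AP-1 was found in 4 (Anxa2, Anxa10, S100a11 and S100a16), of which Anxa10 and S100a16 were not 4-fold different, against 6.75% of 32851 promoters. TEAD was found in 3 of the 23 (12.6% of all promoters), the GC box in 8 (32.7%), the CCAAT box in 6 (33.8%) and the TATA box in 6 (12.4%). A match is a run of letters and says nothing of binding.

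The proteins that annexins and S100 proteins are known to bind or signal through were read as a list of 21 genes, of which Plgrkt was not on the array and 17 were well above background on at least 1 array. In this list 1 gene was at least 4-fold higher and 0 were lower, with a median of -0.55. The gene was Plat, tissue plasminogen activator, whose activation of plasminogen the Anxa2 and S100a10 pair is known to speed. It read 7.49, not well above background, and 6100 (at least 7.19, at least 146-fold). Its substrate Plg, made by hepatocytes, read 60800 and 50200 (-0.86). Ahnak, the giant scaffold that the same pair anchors, read 1090 and 2960 (0.86).

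Of the receptors and other partners, 0 were 4-fold different. Fpr1, a receptor for Anxa1, was 3.93-fold lower (-1.97), and Fpr2 was on neither array. Ager, the receptor through which several S100 proteins signal, read 164 and 178 (-0.46). The targets of S100a6, Cacybp and Sugt1, read 8980 and 5990 (-1.17) and 3950 and 2480 (-1.25), the opposite direction to S100a6. Myh9, bound by S100a4, read 2350 and 2160 (-0.70). Sri, the sorcin that binds Anxa7, read 5310 and 11700 (0.56), and Pdcd6, which binds Anxa11, read 7060 and 6830 (-0.63).

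Other calcium binders were set beside the members. Of 30 other EF-hand genes, 27 were well above background on at least 1 array, 2 were at least 4-fold higher and 0 lower, with a median of -0.11. These were Nucb2, the nucleobindin that is the precursor of nesfatin, at 7.41 in MHs, where it was not well above background, and 2920 (at least 6.13, at least 70.1-fold), and Rcn1, a reticulocalbin of the endoplasmic reticulum, at 60.3 and 2210 (4.61, 24.5-fold). Among the copines and extended synaptotagmins, which bind membranes through C2 domains, 11 of 12 were well above background, 2 were at least 4-fold higher and 0 lower, with a median of 0.56. Cpne7 read 780 and 8560 (2.87, 7.33-fold), and Cpne8 read 6.18, not well above background, and 183 (at least 2.14, at least 4.39-fold). The share of genes past 4-fold on the higher side was 5.88% of the 17 partners and receptors, 7.41% of the 27 EF-hand genes and 18.2% of the 11 copines and extended synaptotagmins, beside 5.59% of all genes. Of the genes behind these shares, Plat, Nucb2 and Cpne8 passed the filter through the Sox9+EpCAM- array alone, so they had to lie above 0. Only Rcn1 and Cpne7 were measured on both arrays. On the lower side 0 genes of each list stand beside 5.57% of all genes, and the lists are short.

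Markers of other cells that are known to carry annexins and S100 proteins differed between the arrays too, and their part in the differences above was not tested. A list's summed level below is the sum of its scaled intensities, which adds probes that are not on a common scale, so the share of its brightest gene is given with most of the sums. Of 14 fibroblast and stellate cell markers, 13 were well above background on at least 1 array. Of these, 6 (46.2%) were past 4-fold on the higher side and 1 (7.69%), Lrat, on the lower side, beside 5.59% and 5.57% of all genes. The summed level was 12.9 in MHs (84.4% of it Dcn) and 55.5 in Sox9+EpCAM- cells (36.2% Col3a1). Col1a1 read 82.6 and 2630 (4.41), Col1a2 377 and 8700 (3.95) and Lrat 94.6 and 3.74 (at most -2.95). Col3a1 read 175 and 22300 (6.41), and Eln and Mgp, not well above background in MHs, read 5570 (at least 7.06) and 5390 (at least 7.02) in Sox9+EpCAM- cells, while Pdgfrb was on neither array. All 8 cholangiocyte markers were well above background on at least 1 array, and 2 (25%), Spp1 (258 and 47000, 6.93) and Epcam, were at least 4-fold higher, with a list median of 0.47. The summed level was 2.64 and 49.3, and of the latter Spp1 made up 85.9%. Krt7 and Krt19, the keratins that define bile duct cells, differed by -0.23 and 0.42, and Cftr, the chloride channel of duct cells, read 69.6 and 52.1 and was lower after scaling. Both lists held genes on either side of 0: 12 above and 1 below among the fibroblast and stellate markers, 6 above and 2 below among the cholangiocyte markers.

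Most macrophage, leukocyte and endothelial markers lay below 0. Of 12 macrophage markers, 9 (75%) were at least 4-fold lower and 1 (8.33%), Cd68, was higher (52.9 and 1140, 3.85), with a median of -2.94. Over all genes, 5.57% were at least 4-fold lower and 5.59% higher. Among the lower ones, the largest by measured difference or bound, whose order among themselves the bounds leave unknown, were Clec4f (6780 and 118, -6.43), Cd5l (2650 and 89.0, -5.48), Vsig4 (368 and 3.81, at most -4.90), Adgre1 (652 and 48.4, -4.33) and Timd4 (124 and 4.03, at most -3.34). The summed level of the list was 35.7 (46.1% Csf1r) and 14.3 (86.5% Csf1r). The summed level of the general leukocyte list was 7.75 (44.4% Laptm5) and 2.01 (47.4% Fcer1g), with Laptm5 lower (2550 and 82.0, -5.54) and Ptprc at 195 and 248 (-0.24). Among the 7 neutrophil markers above background, Mmp8 was higher (2.98) and Ly6g lower (-2.49), and the list's summed level of 105 and 80.9 was mostly Csf3r (88.8% and 96.4%). Endothelial markers had 4 of 8 (50%) past 4-fold on the lower side, Cdh5 (at most -3.07), Tek (-3.04), Stab2 (-3.02) and Tie1 (-2.52), and 0 on the higher side. The summed level of this list was 7.41 (47.0% Kdr) and 2.80 (45.0% Kdr). Of the mesothelial markers, Msln, Upk3b and Upk1b were on neither array and Wt1 was lower (511 and 4.63, at most -5.38). For S100b, the 4 Schwann cell and glial markers were read beside it: Mbp was higher (59.0 and 868, 3.30), Sox10 read 135 and 250 (0.31), and the summed level was 0.335 (54.5% Sox10) and 1.11 (70.4% Mbp). The hepatocyte list had a median of -1.11, with 0 genes above 0 and 33.3% of its genes at least 4-fold lower.

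**Figure D5:**
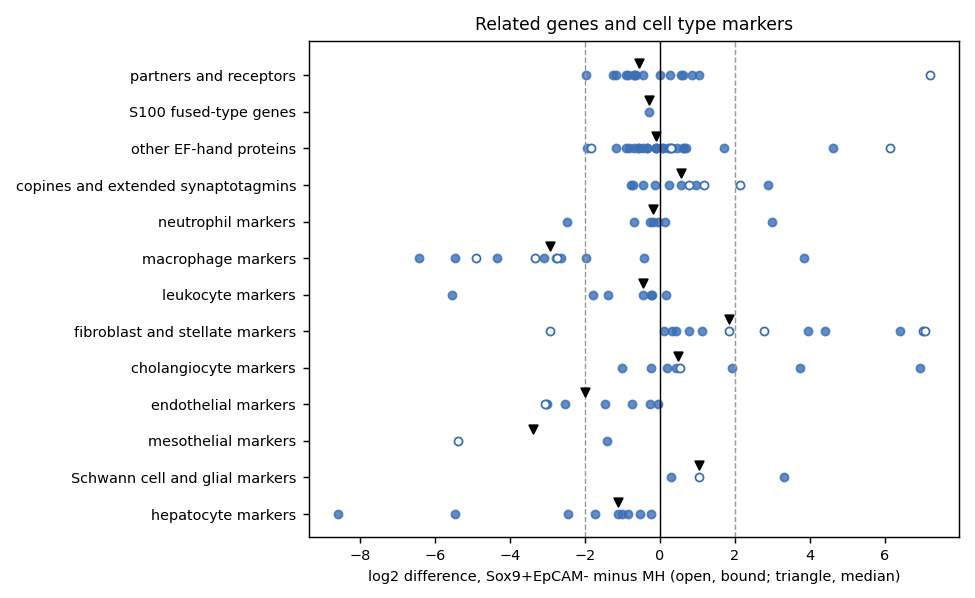
Log2 differences of the genes of each list (filled, measured on both arrays; open, a bound; triangle, the list's median; dashed lines, 4-fold). The fibroblast and stellate markers had a median of 1.84 and the macrophage markers of -2.94, with Plat alone past 4-fold among the partners and receptors.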

How the data were processed

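RNA of both samples, extracted with a column kit, was labelled with Cy3 by a service provider's undisclosed protocol and hybridised to 1 Agilent array each, which shared a slide and a scan. Per the file headers, the authors deposited spot intensities of Feature Extraction 10.7.3.1 (processed signal, already background-corrected, with probe positions on mm9) and a table that proved to hold the same intensity as a linear ratio to the array's median. From the processed intensities, control spots and outlier spots were left out, spots of a probe were averaged, and log2 values were set to the 75th percentile with Python 3.11.15, pandas 2.3.3 and numpy 2.4.6. Normexp background correction (offset 50) used limma 3.58.1 in R 4.3.3. A probe with several spots counted as well above background if at least 50% of them were. The brightest probe had the highest mean over both arrays. Replicate spots of a probe on 1 array (at least 8) had a median SD of 0.08 on the log2 scale, and precision is limited by having 1 array a group. The scaling and the 4-fold count were run on simulated data, made from the MH array with added noise and chosen genes changed past 4-fold. That run checks the code alone and not the count on the real arrays. Every gene of the rule was accounted for, with full values for those at least 4-fold different, those whose probes differed by over 4-fold (0 genes), and the Anxa2 with S100a10 and S100a8 with S100a9 pairs. In other lists, genes at least 4-fold different were named, at most 6 a list by size, and further genes were picked once their values were known. The members and lists were chosen with earlier results of these data known. All 29 names matched RefSeq symbols. Probe sequences were not used in the text, and protein sequences were not analysed here.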

Additional observations from a re-analysis of the deposited data

How the results depend on the processing

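The 25 differences were recomputed with other background correction, scaling, probe choice, outlier handling, values and dim-probe rules. Of 246 values, 234 stayed within 1.5-fold, 12 moved further and 0 of the genes past 4-fold changed sign. The count of genes at least 4-fold higher, 6, was 3 over genes well above background on both arrays, 4 with normexp, 11 at 2-fold and 3 at 10-fold, and 6 or 7 under the other settings. The count at least 4-fold lower, 0, was 1 with quantile normalization (Anxa9), 1 with the probe of the largest difference (Anxa11), 4 at 2-fold and 0 under the others. The annexin median of 0.64 was 0.0501 over genes well above background on both arrays and from 0.47 to 0.91 elsewhere. The S100 median of 0.29 ranged from 0.11 to 0.56. The moved values were those of Anxa1 (2.04 with normexp, 5.62 without the bound), Anxa2 (1.98 and 5.60), S100b (0.29 and 3.35), Anxa9 (-1.05) and Anxa13 (1.42) with normexp, Anxa11 (-2.37), S100a16 (-0.94) and S100pbp (2.07) with the probe of the largest difference, and S100pbp (1.20) with the median of probes. Over all genes, 1309 were at least 4-fold higher and 1304 lower. These were 1650 and 1006 with Gapdh scaling, which moved the median of all genes with a difference or a bound from -0.12 to 0.14, and 1130 and 1563 from the deposited table, which moved it to -0.31. They were 612 and 660 with normexp. No paired analysis was possible because there is a single array of each kind. For the same reason no replicate could be left out and the slide was not fitted as a block. Probes near the lowest signal called above background (27.8 and 18.4) give bounds, so a small difference of a dim gene was not detectable.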
